A study of Homo sapiens with 6 samples.

Results

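The genes described here are 9 members of the JAK, STAT and SOCS families, the signalling core that carries the message of many cytokines: JAK1, JAK2, STAT2, STAT3, STAT5A, STAT5B, STAT6, SOCS1 and SOCS3. Every probe set whose annotation gives 1 of these symbols was taken, which gave 28 probe sets for 8 of the 9 genes, out of 19775 genes read on the array. JAK1 and STAT5B had 5 probe sets each, STAT3, SOCS1 and SOCS3 had 4 each, JAK2 had 3, STAT6 had 2 and STAT5A had 1. STAT2 was not analysed here. Probe sets of 1 gene read the same RNA and are not replicates of each other.

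The cells were NCI-H226, an established human mesothelioma cell line, in a pair of culture forms and with no drug or genetic change in either. Spheroids (3 arrays) were made without any matrix, from 10000 cells per spheroid left for 24 hours in wells coated with poly-HEMA, a polymer to which cells do not attach. Monolayers (3 arrays) were adherent cultures of the same line. The samples are labelled as biological replicates, and all come from 1 cell line. Total RNA was read on Affymetrix Human Genome U133 Plus 2.0 arrays, and the deposited values are linear MAS5 signal intensities, 1 per probe set and array. Fold changes are log2 differences, spheroid minus monolayer, after each array was centred on its median, and a probe set was called when its limma p was under 0.05 after Benjamini-Hochberg adjustment across the 54613 probe sets tested.

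Cytokine receptors have no enzyme of their own, and a JAK kinase bound to the inner part of the receptor is switched on when the cytokine binds. The JAK phosphorylates the receptor and the STAT proteins that dock there, and these pair up and move into the nucleus as transcription factors. SOCS genes are themselves switched on by STATs and their proteins shut the receptor and kinase down, which makes a feedback loop. In mesothelial and other epithelial cells the IL-6 family acts mainly through JAK1 and STAT3, and interferons act through JAK1 and, for type I, STAT2. The arrays measured RNA, so the phosphorylation that activates JAK and STAT proteins was not measured.

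The feedback loop starts at promoters, so the start regions of these genes were searched for a pair of motifs. The first was TTCNNNGAA, the core to which STAT dimers bind, which is its own reverse complement. In the RefSeq promoter table (build GRCh38.p14, 250 bases before to 50 after each start) it stood in 7.66% of 35116 windows and in 0 of the 17 windows that matched the 9 genes. The second was GAAANNGAAA, the core of the interferon-stimulated response element, searched on both strands and chosen after the first had been counted. It stood in 3.57% of all windows and in 1 of the 17, that of SOCS1. The SOCS1 window is shown because it was the only one of the 9 genes with a match, and the match, 113 bases before the start, is in capitals (GRCh38.p14, chr16:11256205-11256454, minus strand). The other windows shown are CISH, a SOCS family gene with 4 TTCNNNGAA matches 241, 230, 129 and 112 bases before its start (chr3:50611775-50612024, minus strand), and IRF9, a DNA-binding partner of STAT2, with 1 match 63 bases before its start (chr14:24161015-24161264, plus strand). Each runs 5′ to 3′ up to the start and ends there, with the TTCNNNGAA matches in capitals for CISH and IRF9. A match describes the letters and is no evidence of binding.
SOCS1: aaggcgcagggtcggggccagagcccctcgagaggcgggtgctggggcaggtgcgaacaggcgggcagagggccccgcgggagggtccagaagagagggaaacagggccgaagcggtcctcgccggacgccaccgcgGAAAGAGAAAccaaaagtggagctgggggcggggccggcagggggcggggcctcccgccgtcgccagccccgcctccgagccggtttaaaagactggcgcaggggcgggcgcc
CISH: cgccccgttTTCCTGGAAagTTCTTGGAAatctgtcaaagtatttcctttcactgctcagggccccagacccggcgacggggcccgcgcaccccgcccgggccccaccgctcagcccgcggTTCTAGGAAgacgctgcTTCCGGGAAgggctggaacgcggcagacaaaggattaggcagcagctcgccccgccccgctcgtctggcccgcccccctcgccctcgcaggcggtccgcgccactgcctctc
IRF9: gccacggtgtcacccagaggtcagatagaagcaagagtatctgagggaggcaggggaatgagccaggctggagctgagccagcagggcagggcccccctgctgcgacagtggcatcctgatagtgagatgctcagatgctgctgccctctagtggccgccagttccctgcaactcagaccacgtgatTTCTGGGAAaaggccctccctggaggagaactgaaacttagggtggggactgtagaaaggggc

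Of the 28 probe sets, 1 was called higher in spheroids and 0 were called lower, against 9.43% of all tested probe sets called in either direction (2.78% higher and 6.65% lower). At an unadjusted p under 0.05, 6 member probe sets were higher and 1 was lower, where 7.88% and 14.6% of all tested probe sets were. The 6 belonged to JAK1, STAT3, STAT6 and SOCS1. The centred log2 differences of the 8 genes, each read by its brightest probe set, had a median of 0.25, and that of all 28 probe sets was 0.01. The median was -0.08 over all tested probe sets and -0.06 over all 19775 genes. The deposited signals of the 3 spheroid arrays were all above those of the 3 monolayer arrays at 9 member probe sets and all below them at 1, against 15.7% and 13.5% of all tested probe sets. Among the 19 member probe sets above the median level these counts were 8 and 1, and 21.6% of all probe sets above the median level were separated upward and 22.1% downward. The 8 that were separated upward belonged to JAK1, STAT3, STAT5A, STAT6 and SOCS1, and 1 of them, JAK1 1552610_a_at, passed the test.

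**Figure D1:**
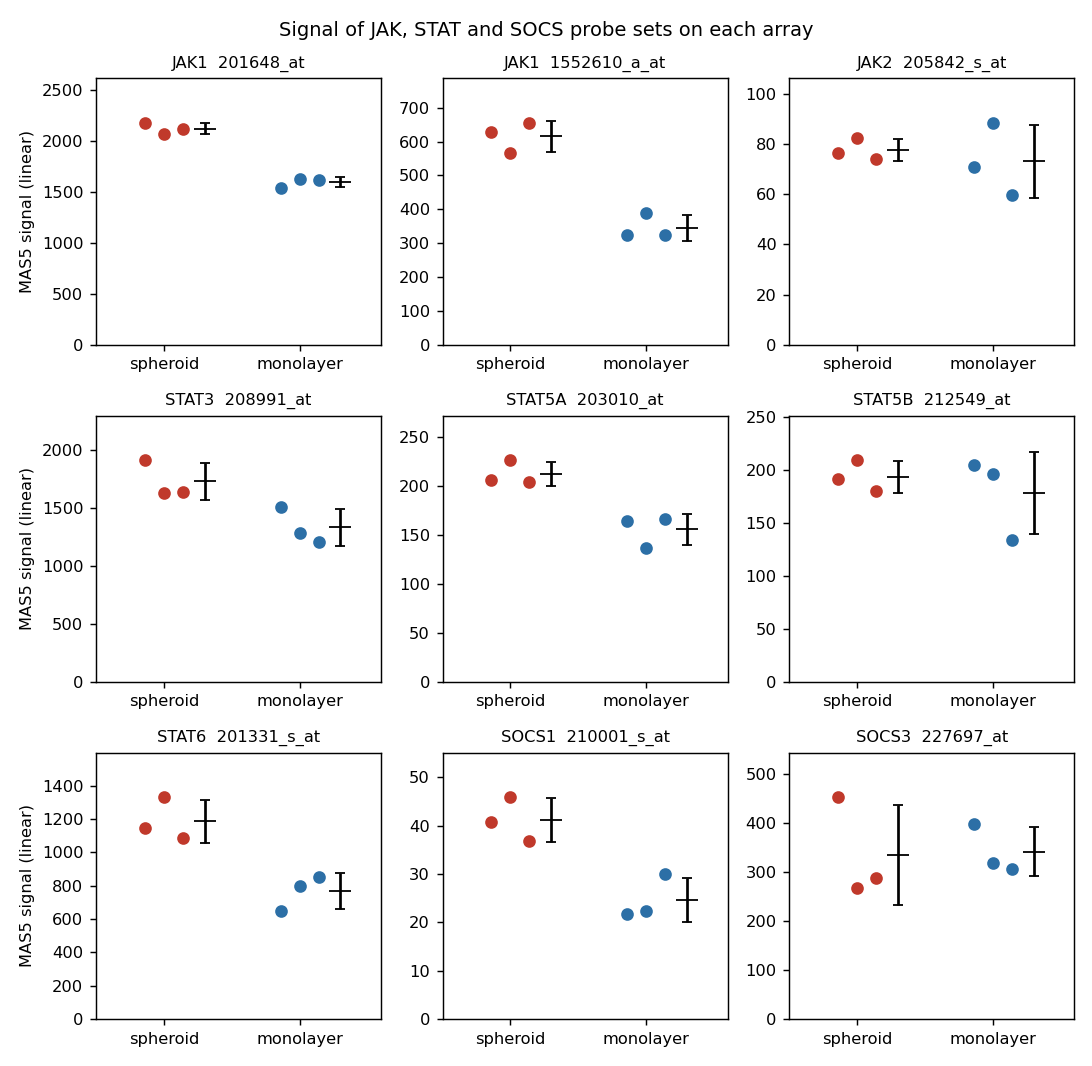
MAS5 signal (linear, vertical axes from 0, scaled per panel) of 9 probe sets on each of 3 spheroid arrays (red) and 3 monolayer arrays (blue), with mean and SD in black. The spheroid and monolayer points do not overlap for JAK1, STAT3, STAT5A, STAT6 and SOCS1, and they overlap for JAK2, STAT5B and SOCS3.

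The limma counts depended on the centring of the arrays, while the counts of separated signals were taken on the deposited values. On centred values 8 member probe sets were separated upward and 1 downward. Median signals were 15.6, 18.0 and 15.2 on the spheroid arrays, against 14.7, 14.6 and 14.7 on the monolayer arrays, so centring lowers the spheroid values relative to the monolayer values. Without it the median log2 difference of all tested probe sets was 0.07 in place of -0.08, and 2561 probe sets were called higher and 2863 lower, in place of 1519 and 3630. At that setting 5 member probe sets passed, the 3 bright ones of JAK1, STAT3 225289_at and STAT6 201331_s_at, all higher in spheroids, and these 5 also passed after quantile normalization. With limma's mean-variance trend left out, and likewise by the methods' t-test (the test that the study's methods name) after adjustment, 0 members passed.

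**Figure D2:**
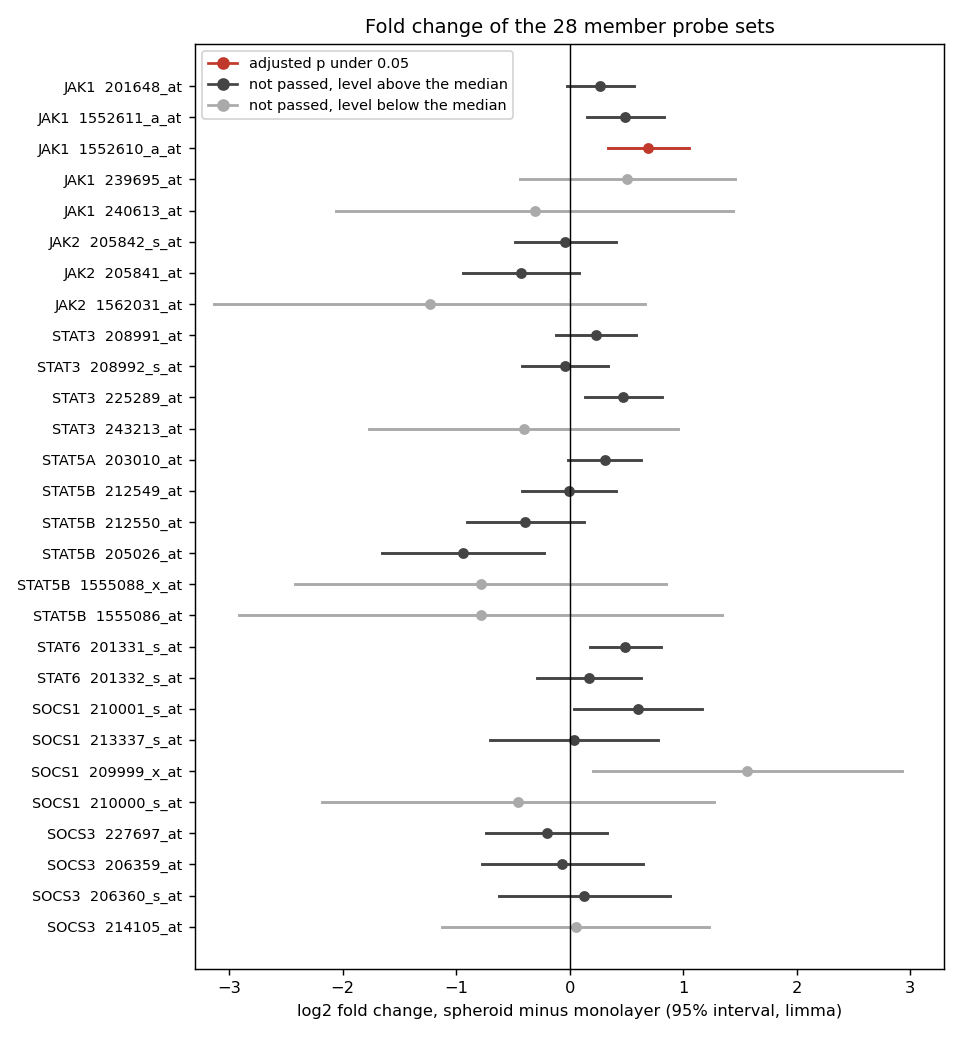
Log2 fold change of the 28 member probe sets, spheroid minus monolayer (horizontal axis), with limma's 95% interval as a line. JAK1 1552610_a_at (red) at 0.69 was the one called, and the intervals of the 9 dim probe sets (grey) were the widest.

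JAK1, the kinase shared by the receptors of the IL-6 family and of the interferons, was the member with a called probe set, 1 of its 5. That probe set, 1552610_a_at, gave signals of 627, 566 and 656 in spheroids and 324, 389 and 324 in monolayers. The lowest spheroid array thus lay well above the highest monolayer array. The means were 616 ± 45.7 and 345 ± 37.9 (SD, n = 3 each), and the centred log2 difference was 0.69 (SE 0.16, a fold change of 1.62 with a 95% interval of 1.26 to 2.07, limma adjusted p = 0.0274). The call was lost, at log2 differences of 0.60 to 0.78, without spheroid 1 (adjusted p = 0.0881), spheroid 3 (0.103), monolayer 2 (0.0557) or monolayer 3 (0.108).

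The other JAK1 probe sets above the median level were also separated, by smaller amounts. Probe set 1552611_a_at read 788, 771 and 912 in spheroids and 508, 567 and 515 in monolayers (log2 difference 0.49, 95% interval 0.15 to 0.83, limma adjusted p = 0.0814). The brightest, 201648_at, read 2175, 2066 and 2112 in spheroids and 1536, 1625 and 1612 in monolayers (0.27, -0.03 to 0.56, limma adjusted p = 0.272). All 3 had higher signals on every spheroid array, and they differed in size, so that JAK1 read by its brightest probe set was not called. The remaining JAK1 probe sets, 239695_at and 240613_at, had signals of 1.79 to 21.6 in spheroids and 6.81 to 12.4 in monolayers, and the groups overlapped.

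The genes whose centred values ran most like JAK1 1552610_a_at over the 6 arrays were HFE, a regulator of iron uptake (r = 0.999), BDKRB2, a bradykinin receptor (r = 0.998), and UBE2H, a ubiquitin-conjugating enzyme (r = 0.996). They are the top 3 of 23229 probe sets above the median level with 1 gene symbol, and the 6 points share their arrays and their 2 culture forms. HFE signals were 85.5, 82.3 and 90.2 in spheroids and 47.7, 55.6 and 47.8 in monolayers. As with JAK1, monolayer 2 was the highest monolayer array and spheroid 2 the lowest spheroid array.

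JAK2, the kinase of the growth hormone, prolactin and erythropoietin receptors and of the IFN-γ receptor's second chain, overlapped between the groups at each of its probe sets. Probe set 205842_s_at read 76.3, 82.4 and 74.1 in spheroids and 71.0, 88.5 and 59.7 in monolayers, with a log2 difference of -0.04 (95% interval -0.48 to 0.40, limma adjusted p = 0.938). At 205841_at the signals were 71.9, 57.8 and 61.2 in spheroids and 60.6, 88.5 and 85.6 in monolayers (-0.43, -0.94 to 0.08, limma adjusted p = 0.310). Monolayer 1 was the low monolayer array there and lay among the spheroids. The third, 1562031_at, stayed under 10 on every array. Changes up to the ends of these intervals could not be seen with 3 arrays a group.

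STAT3, the main STAT of the IL-6 family, gave different readings by probe set. At 225289_at the signals were 868, 736 and 711 in spheroids and 551, 481 and 475 in monolayers (log2 difference 0.47, 95% interval 0.13 to 0.81, limma adjusted p = 0.0888). The brightest, 208991_at, read 1916, 1633 and 1641 in spheroids and 1513, 1287 and 1206 in monolayers (0.23, -0.12 to 0.58, limma adjusted p = 0.447). Replicate 1 was the highest array of its group at both, and after centring the groups overlapped at 208991_at. At 208992_s_at the groups overlapped, with 1221, 974 and 1092 in spheroids and 1136, 1017 and 905 in monolayers (-0.04, -0.42 to 0.34, limma adjusted p = 0.925). The dim 243213_at overlapped too, between 3.08 and 13.7 over the 6 arrays. None of the 4 passed the test.

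STAT5A and STAT5B are close copies of each other that serve growth hormone and prolactin. STAT5A 203010_at read 207, 227 and 204 in spheroids and 164, 137 and 166 in monolayers, with no overlap (log2 difference 0.31, 95% interval -0.01 to 0.63, limma adjusted p = 0.245). STAT5B 212549_at, the brightest of its 5, read 191, 209 and 179.6 in spheroids and 204, 197 and 134 in monolayers (-0.01, -0.42 to 0.41, limma adjusted p = 0.992). Spheroid and monolayer arrays were fully mixed at that probe set. STAT5B 205026_at was the only member probe set separated downward, with 14.4, 31.4 and 27.1 in spheroids and 36.7, 44.6 and 39.2 in monolayers (-0.94, -1.65 to -0.23, limma adjusted p = 0.106). When only probe sets above the median level were tested it was called, at an adjusted p of 0.0499. The other 3 STAT5B probe sets overlapped: 212550_at read 51.8 to 69.9 in spheroids and 64.2 to 84.3 in monolayers, and 1555088_x_at and 1555086_at stayed under 11 on every array. Whether any probe of one gene also reads the other was not analysed here.

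STAT6, the STAT of IL-4 and IL-13, came nearest to the threshold after JAK1. Probe set 201331_s_at read 1143, 1331 and 1083 in spheroids and 645, 799 and 854 in monolayers, and the lowest spheroid array was above every monolayer array (means 1186 ± 129 and 766 ± 108, SD, n = 3 each). The log2 difference was 0.49 (95% interval 0.18 to 0.80, limma adjusted p = 0.0591), and it passed at 0.0342 when only probe sets above the median level were tested. The dimmer 201332_s_at read 83.8, 92.6 and 86.4 in spheroids and 58.8, 89.6 and 66.0 in monolayers (0.17, -0.28 to 0.63, limma adjusted p = 0.698). There monolayer 2 lay among the spheroids.

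SOCS1, which blocks JAK kinases directly and is best known as the brake on interferon signalling, was dim. Its brightest probe set, 210001_s_at, read 40.8, 45.9 and 36.8 in spheroids and 21.7, 22.4 and 29.9 in monolayers (log2 difference 0.60, 95% interval 0.04 to 1.16, limma adjusted p = 0.189). At 209999_x_at the signals were 24.3, 6.89 and 20.2 in spheroids and 4.33, 5.19 and 4.31 in monolayers (1.56, 0.20 to 2.93, limma adjusted p = 0.158). Spheroid 2 was the low array there, and without it the difference was 2.20 and passed (adjusted p = 0.0421). The others overlapped: 213337_s_at read 14.1 to 24.1 in spheroids and 15.1 to 19.1 in monolayers, and 210000_s_at read 1.93 to 4.84 in spheroids and 2.24 to 10.4 in monolayers.

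SOCS3, the feedback inhibitor that binds gp130 and is a classical STAT3 target, overlapped between the groups at all 4 probe sets. The brightest, 227697_at, read 452, 266 and 286 in spheroids and 398, 319 and 306 in monolayers (log2 difference -0.20, fold interval 0.600 to 1.26, limma adjusted p = 0.694). At 206359_at the signals were 93.7, 47.5 and 57.0 in spheroids and 46.2, 63.8 and 73.1 in monolayers, and at 206360_s_at they were 40.2, 24.9 and 23.9 in spheroids and 28.2, 25.8 and 18.6 in monolayers. Spheroid 1 was the highest of the 6 arrays at each of these 3. The dim 214105_at read 7.83 to 19.6 in spheroids and 5.70 to 13.5 in monolayers. The interval of 227697_at spans changes of either sign and leaves out a rise of the size seen for JAK1 1552610_a_at. The interval of 206360_s_at, -0.62 to 0.88 on the log2 scale, does not leave it out.

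The genes around these members were read from 9 lists. Of the 131 genes listed, 125 had a probe set annotated with that symbol alone and are counted as measured, each by its brightest probe set. The others were not analysed here, which says nothing about their RNA. Of the 125, 21 were called higher and 5 lower, with a median log2 difference of 0.35. Over all genes 3.88% were called higher and 9.22% lower. With 1 array left out the counts were 13 (without spheroid 3) to 28 (without spheroid 2) higher and 2 (without spheroid 1 or monolayer 2) to 9 (without monolayer 1) lower. A gene may be in several lists. RNA from a whole culture cannot tell fewer cells of a type from less RNA per cell.

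**Figure D3:**
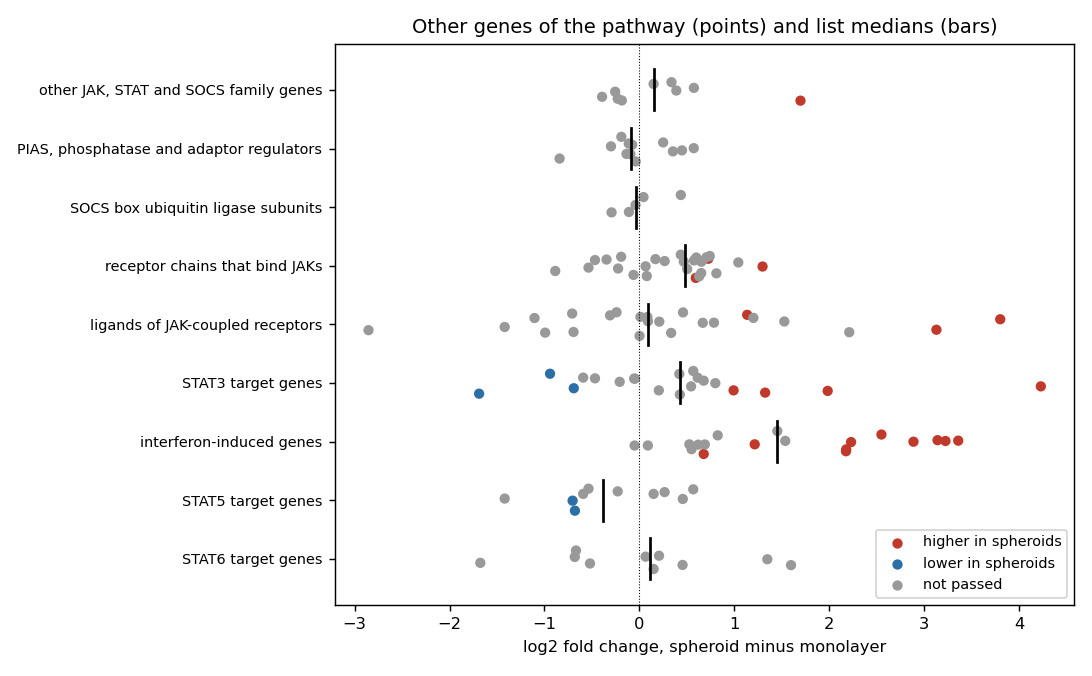
Log2 fold change, spheroid minus monolayer (horizontal axis), of each measured gene of the 9 pathway lists (points, with their height spread only to keep them apart) and each list's median (bar). The interferon-induced genes had the highest median, 1.45, and 10 of their 19 points are red (called higher).

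Among the 9 measured genes of the rest of the JAK, STAT and SOCS families 1 was called, higher, and the median difference was 0.15. It was JAK3, the kinase that pairs with the common γ chain, known mainly from lymphocytes. JAK3 227677_at read 136, 87.3 and 68.8 in spheroids and 25.7, 29.4 and 23.5 in monolayers, so the lowest spheroid array stood well above the highest monolayer array. The log2 difference was 1.70 (SE 0.28, limma adjusted p = 0.00671). Of the 4 JAK3 probe sets 211108_s_at also passed, and 207187_at (log2 difference 0.43, limma adjusted p = 0.325) and the dim 211109_at (-0.15, limma adjusted p = 0.947) did not. CISH, the SOCS family gene shown above, read 19.8, 20.7 and 13.0 in spheroids and 12.03, 11.3 and 21.3 in monolayers (0.15, limma adjusted p = 0.877). SOCS2 read 557, 327 and 330.2 in spheroids and 658, 312 and 348 in monolayers, with replicate 1 the highest array of both groups, as at SOCS3 227697_at. None of 12 PIAS, phosphatase and adaptor regulators and none of 5 subunits of the SOCS box ubiquitin ligase was called (medians -0.09 and -0.04). Without centring and after quantile normalization 2 genes of the first list and 1 of each of these other lists were called higher. Without the trend, or in the methods' t-test, 0 were, JAK3 included.

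Of 23 measured ligands of JAK-coupled receptors 3 were called higher and 0 lower (median 0.09). IL6, which signals through gp130, JAK1 and STAT3, read 746, 1553 and 2799.5 in spheroids and 86.0, 219.9 and 189.8 in monolayers (log2 difference 3.13, SE 0.48, limma adjusted p = 0.00487). The groups did not overlap, and the spheroid arrays spread widely. CSF3, the granulocyte growth factor, read 32.5, 55.6 and 85.6 in spheroids and 3.27, 3.24 and 3.996 in monolayers (3.80, limma adjusted p = 0.00149). The monolayer signals of CSF3 were below the median signal of every array, where background is unknown, so the size of its difference is uncertain. LIF, another gp130 ligand, read 513, 872 and 1032 in spheroids and 347, 327 and 285 in monolayers (1.13, limma adjusted p = 0.0188). In all 3, spheroid 1 was the lowest spheroid array. The LIF call was lost without spheroid 2, spheroid 3, monolayer 2 or monolayer 3, at differences of 0.88 to 1.16, and the calls of IL6 and CSF3 were kept whichever array was left out. Without the trend, or in the methods' t-test, 1 ligand was called. OSM, a further ligand of the family, was dim, at 5.37, 3.69 and 3.74 in spheroids and 6.36, 9.96 and 16.6 in monolayers (-1.42, limma adjusted p = 0.161).

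Of 26 measured receptor chains 3 were called higher and 0 lower (median 0.48), and each of these 3 serves interferons or the IL-10 family. The count higher was 6 without centring, 7 after quantile normalization and 0 without the trend or by the methods' t-test, and it was 1 without spheroid 1 or monolayer 3 and 0 without spheroid 3 or monolayer 2. Without monolayer 1, 4 were higher and 1 was lower. At an unadjusted limma p under 0.05, 7 chains were higher and 0 lower. They included OSMR, IL15RA and IL13RA1 (log2 differences 0.63, 0.57 and 0.47), which were not called (limma adjusted p = 0.106, 0.0672 and 0.117). IFNGR1, the ligand-binding chain of the IFN-γ receptor, read 3357, 3196 and 3338 in spheroids and 1845, 988 and 980.4 in monolayers (log2 difference 1.30, limma adjusted p = 0.0110). Monolayer 1 stood above the other monolayers and still below every spheroid. IL10RB, shared by the IL-10 family and type III interferons, read 1388, 1379 and 1322 in spheroids and 882, 656 and 716 in monolayers (0.72, limma adjusted p = 0.0163). IFNAR1, of the type I interferon receptor, read 517, 578 and 565 in spheroids and 350.1, 304 and 341 in monolayers (0.59, limma adjusted p = 0.0219). IL6ST, which encodes gp130, read 3586, 3995 and 4335 in spheroids and 3323, 3348 and 3513 in monolayers, and its centred difference was 0.08 (95% interval -0.24 to 0.39, limma adjusted p = 0.814). The receptor for LIF, LIFR, read 853, 454 and 467 in spheroids and 2997, 543 and 518 in monolayers, so 1 monolayer array carried the high value. IL10RB and IFNAR1 were not called without spheroid 1, spheroid 3, monolayer 2 or monolayer 3 (0.64 to 0.70 and 0.53 to 0.61), and IFNGR1 was not called without spheroid 3 or monolayer 2 (1.24 and 1.15).

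The last 4 lists hold interferon-induced genes and target genes of STAT3, STAT5 and STAT6. Of 19 interferon-induced genes 10 were called higher and 0 lower, with a median of 1.45. GBP2, an interferon-induced GTPase, read 160.0, 143 and 147 in spheroids and 13.4, 17.7 and 12.9 in monolayers (log2 difference 3.22, limma adjusted p = 0.000319). OAS2, an antiviral enzyme, read 161, 96.4 and 183 in spheroids and 21.6, 12.3 and 11.5 in monolayers (3.14, limma adjusted p = 0.00141). Monolayers 1 and 3 for GBP2, and 2 and 3 for OAS2, were below the median signal of every array. The sizes of these differences are therefore uncertain. GBP1 and ISG20, an exonuclease, rose by 2.89 and 2.18. Their groups did not overlap. IRF9 read 781, 657 and 722 in spheroids and 415, 447 and 360.5 in monolayers (0.68, SE 0.16, limma adjusted p = 0.0309). Like the call of JAK1 1552610_a_at, that of IRF9 was lost without spheroid 1, spheroid 3, monolayer 2 or monolayer 3, at differences of 0.59 to 0.75. Under quantile normalization 14 of the 19 were called, without the trend 2 were and by the methods' t-test 1 was. Leaving out 1 array gave 6 (without spheroid 3) to 14 (without spheroid 2) called higher, with 7 without spheroid 1, and 0 lower in each case.

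Of 20 measured STAT3 targets 4 were called higher and 3 lower (median 0.42). These counts were 7 and 3 without centring, 6 and 3 after quantile normalization, 2 and 0 both without the trend and in the methods' t-test, and 4 and 5 without monolayer 1, while leaving out any other array gave 4 or 5 higher and 2 lower. LCN2, an iron-carrier-binding protein of the acute phase, read 1262, 1486 and 1392 in spheroids and 54.4, 87.6 and 61.7 in monolayers (log2 difference 4.23, SE 0.19, limma adjusted p = 4.92e-05). FOS, an AP-1 subunit, read 60.3, 61.3 and 41.0 in spheroids and 10.1, 14.4 and 12.5 in monolayers (1.98, limma adjusted p = 0.00386). Its monolayer signals were below the median signal of every array, so the size of the FOS difference is uncertain. VEGFA, the vascular growth factor, read 1486, 1767 and 1566 in spheroids and 600.0, 805 and 801 in monolayers (0.99, limma adjusted p = 0.00406). BIRC5, which encodes survivin and is transcribed mainly in dividing cells, went the other way, with 609, 499 and 361 in spheroids and 1402, 1322 and 1464 in monolayers (-1.69, limma adjusted p = 0.00115). The others called were CEBPD, higher, and MYC and CCND1, both growth genes and both lower. SOCS3, listed as a member and not counted here, was not called.

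Of 10 STAT5 targets 0 were called higher and 2 lower (median -0.38). CCND2, a D-type cyclin, read 508, 683 and 513 in spheroids and 952, 799 and 747 in monolayers (log2 difference -0.70, limma adjusted p = 0.0146). ID1, an inhibitor of differentiation, read 1675, 1668 and 1895 in spheroids and 2748, 2353 and 2484 in monolayers (-0.68, limma adjusted p = 0.0214). The CCND2 call was lost without spheroid 1, spheroid 3 or monolayer 2 (-0.73 to -0.66), and that of ID1 without spheroid 1, monolayer 2 or monolayer 3 (-0.73 to -0.68). Without centring and after quantile normalization the CCND2 call was lost and 2 genes of this list were called higher. Of 10 STAT6 targets 0 were called in either direction (median 0.11), with 2 higher and 1 lower at an unadjusted p under 0.05, and 2 were called higher and 1 lower without monolayer 1.

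**Figure D4:**
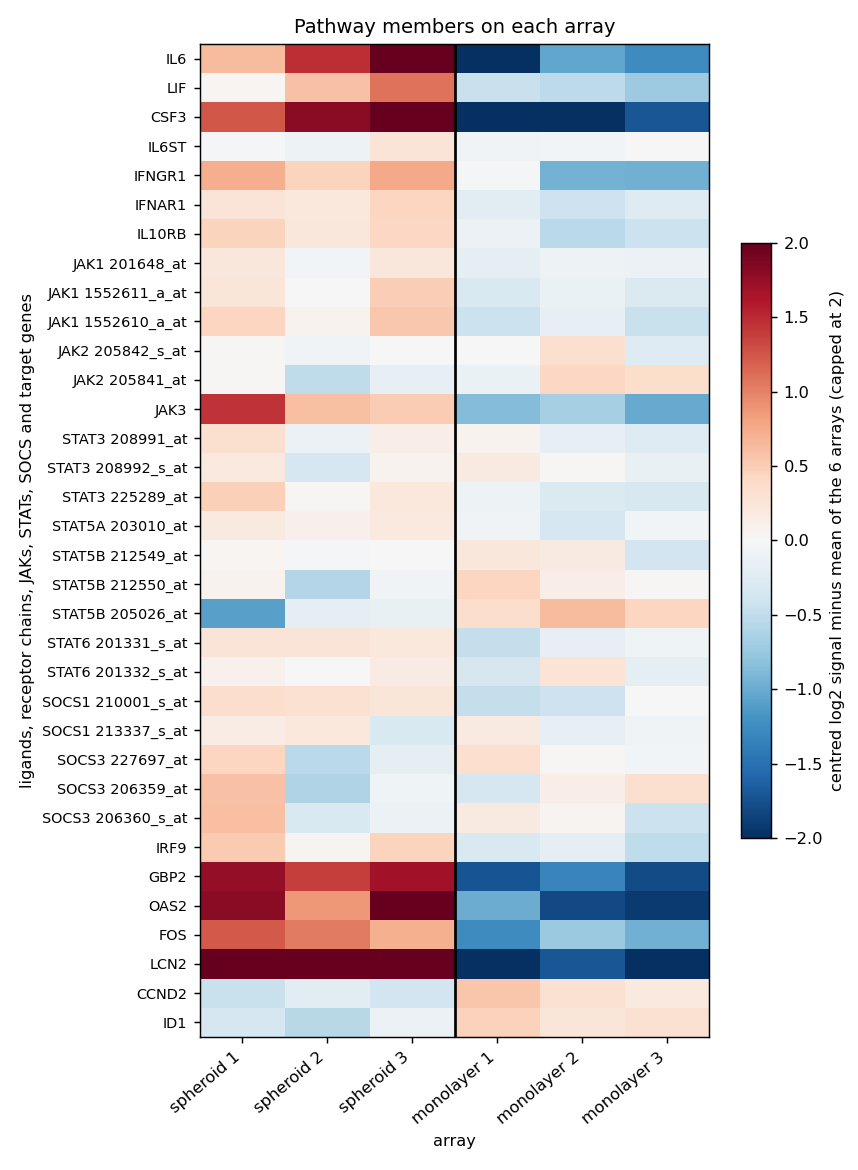
Centred log2 signal of each gene or probe set minus its mean over the 6 arrays (colour, red high and blue low, capped at 2), ordered from ligands through receptors, kinases, STATs and SOCS genes to targets. The JAK, STAT and SOCS members are pale beside IL6, CSF3, GBP2, OAS2 and LCN2, which are red on all 3 spheroid arrays and blue on all 3 monolayer arrays.

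The label of the cells was checked on marker genes. Of 9 measured mesothelial markers 1 was called, PDPN, higher in spheroids (log2 difference 1.10, limma adjusted p = 0.0396), and KRT18 was bright in both forms, at 5594, 5876 and 5612 in spheroids and 5152, 4629 and 4632 in monolayers. WT1 read 2009, 1811 and 1837 in spheroids and 1845, 1452 and 1347 in monolayers. MSLN read 409, 378 and 298 in spheroids and 345, 218 and 179 in monolayers. The PDPN call was kept without monolayer 1 and lost without any 1 of the other arrays, at 0.89 to 1.21. Monolayer 1 stood apart at some of these genes. CALB2, which encodes calretinin, read 2238, 1317 and 1765 in spheroids and 1582, 163 and 83.6 in monolayers. KRT5 read 910.5, 267 and 290 in spheroids and 1845, 130 and 79.3 in monolayers. UPK3B read 2080.5, 1404 and 1562 in spheroids and 1783, 692 and 427 in monolayers. THBD was separated downward, with 96.1, 86.5 and 54.3 in spheroids and 349, 99.9 and 127 in monolayers (-1.24, limma adjusted p = 0.109). At an unadjusted limma p under 0.05, 2 mesothelial markers were higher and 1, THBD, was lower. The median difference of the 9 was 0.45. Without monolayer 1, 5 of the mesothelial markers were called higher and 0 lower. The fibroblast markers then had 3 higher and 1 lower, the leukocyte markers 2 higher and 0 lower, and the endothelial markers 0 in either direction. At the same setting the member count stayed at 1, and the pathway lists had 26 genes higher and 9 lower. Of 9 measured leukocyte markers 1 was called, ITGAX, an integrin (1.48, limma adjusted p = 0.00929, not called at 1.37 without spheroid 3), and the summed signal of the 9 was 244 to 248 in spheroids and 164 to 172 in monolayers. PTPRC, the defining leukocyte gene, read 13.3, 13.9 and 12.1 in spheroids and 6.70, 3.51 and 1.56 in monolayers, below the median signal of every array. Of 10 endothelial markers 0 were called (median log2 difference 0.17), with a summed signal of 194 to 253 in spheroids and 259 to 493 in monolayers. KDR and TIE1 made up most of the monolayer sums. KDR read 61.2, 14.4 and 32.9 in spheroids and 422, 13.6 and 8.35 in monolayers. TIE1, the brightest in spheroids, read 62.4, 165 and 124 there and 19.3, 204 and 205 in monolayers. Of 10 fibroblast markers 1 was called, PDGFRA (3.67, limma adjusted p = 0.00514). Their summed signal was 2055 to 2296 in spheroids and 1869 to 2407 in monolayers. COL1A1, the brightest of them, read 1352, 1611 and 1306 in spheroids and 1024, 1548 and 1410.4 in monolayers. The ratio of 3′ to 5′ ACTB signal, which rises as RNA degrades, was 1.11 to 1.23 in spheroids and 1.09 to 1.11 in monolayers. The same ratio for GAPDH overlapped, at 0.890 to 0.914 in spheroids and 0.882 to 0.914 in monolayers. The part of these differences in the results above was not tested.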

How the data were processed

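Total RNA of 3 spheroid and 3 monolayer cultures was hybridized to 1 array each. The deposited signal intensities are linear MAS5 values that the authors scaled to a common trimmed mean (highest and lowest 2% left out), and detection calls were not used here, so background is unknown. Signals were taken to log2, with no floor or filter, and centred on each array's median over all probe sets. After 62 control probe sets were left out, 54613 were tested with limma 3.58.1 in R 4.3.3 (empirical Bayes with a mean-variance trend). The annotation names 1 gene for 41097 probe sets, several for 1801 and none for 11777. A list gene was read by its brightest probe set, the one with the highest mean centred level. The members and lists were chosen with earlier results of these data known. Named genes were all members, up to 4 called genes per list with the smallest adjusted p, the brightest marker of each cell type list, IL6, LIF, OSM, IL6ST and IRF9, and the 3 genes most correlated with the called member. CISH, SOCS2, LIFR, OSMR, IL15RA, IL13RA1, CEBPD, MYC, CCND1, CALB2, THBD, WT1, MSLN, KRT5, UPK3B, KDR and PTPRC were named after their values had been seen. The script was tested on simulated data. A planned comparison of the member proteins was not run. Alternatives covered centring, quantile normalization, a floor, a level filter, the trend, the methods' t-test, a replicate block, other probe sets and each array left out.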

Additional observations from a re-analysis of the deposited data

How the results depend on the processing

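With 3 arrays a group and unknown background, small changes and dim probe sets could not be resolved, and the causes of the shifts below were not tested. The median of the 8 member genes stayed positive under every alternative, between 0.17 and 0.39. Without centring, 2561 probe sets, 35 pathway genes and 5 member probe sets were called higher, and after quantile normalization 2455, 36 and 5. The differences that changed sign at those 2 settings were JAK2 205842_s_at (0.10 without centring and 0.081 after quantile normalization), STAT3 208992_s_at (0.10 and 0.12), STAT5B 212549_at (0.14 and 0.16), SOCS3 206359_at (0.080 and 0.044), ITGAM (0.077 and 0.056) and COL1A1 (0.12 and 0.12), none of them called at either. With only probe sets above the median level 3 member probe sets were called. Without the trend, 176 probe sets were called higher and 281 lower, with 5 pathway genes higher, 0 lower and 0 members. By the methods' t-test these were 267, 974, 4, 0 and 0. Over all probe sets of the list genes, 38 were higher and 10 lower.

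Leaving out 1 array gave 632 to 2263 probe sets higher, 1612 to 4314 lower, 13 to 28 pathway genes higher, 2 to 9 lower and 0 to 3 member probe sets called. The lowest of these counts came without spheroid 3 (632 and 13), without monolayer 2 (1612, with 2 pathway genes lower) and without spheroid 1 (2 pathway genes lower). Differences that changed sign ranged from -0.18 to 0.11 for JAK2 205842_s_at, -0.15 to 0.12 for STAT3 208992_s_at, -0.20 to 0.11 for STAT5B 212549_at, -0.063 to 0.20 for SOCS1 213337_s_at, -0.47 to 0.019 for SOCS3 227697_at, -0.38 to 0.22 for SOCS3 206359_at, -0.14 to 0.31 for SOCS3 206360_s_at, -0.28 to 0.11 for ITGAM, -1.06 to 0.64 for TIE1, -0.21 to 0.094 for COL1A1 and -0.035 to 0.15 for IL6ST.

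Same-numbered deviations correlated at 0.0909, -0.0131 and 0.0223, and 2 of 6 arrays correlated best with their own number. With so few arrays these values cannot decide whether same-numbered cultures were prepared together. The paper states that the RNA came from independent experiments. With the numbers as a block 6133 probe sets were called, in place of 5149. At that setting 9 pathway genes were lower, 26 were higher and 1 member was called.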
